A study of Homo sapiens with 17 samples.

Results

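The WT-only peaks are stretches of the genome where H3K27me3 was called in WT neurons and where the UTX knockout (KO) list held no overlapping call. They were chosen by comparing 2 deposited peak lists: of 10340 WT H3K27me3 peaks on chromosomes 1 to 22 and X, 2867 (27.7%) overlapped no KO H3K27me3 peak by even 1 bp. The other 7473 overlapped a KO peak and are called shared, and 4494 of the 10950 KO peaks overlapped no WT peak. Because membership was selected on the presence or absence of a call, peak length, fold enrichment and distance to KO peaks are given as descriptions, and the tests are on RNA, which the selection did not use.

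All cells came from H9 (WA09), an established human embryonic stem cell line, at passage P40, and were neurons at day 40 of differentiation through embryoid bodies and neural progenitors. WT cells have the genotype wild type, and the lines KO1 and KO2 are labelled UTX-/-. RNA-seq covered 3 WT, 3 KO1 and 2 KO2 libraries, with 17.4 to 31.5 M estimated counts each. ChIP-seq was a single biological replicate, with 1 deposited H3K27me3 list for WT and 1 for KO. Samples of both KO lines point to the same KO list, and whether it holds KO1, KO2 or both is not stated. The WT-only class may therefore be defined against only 1 KO line. The labels do not tie a ChIP sample to an RNA library, and do not say whether RNA replicates were separate cultures. The p-values therefore cover only the spread among these libraries. No peak class has a replicate check. The WT H3K27me3 list rested on 22.45 M treatment tags and 23.03 M control tags, and the KO list on 37.59 M and 45.67 M. The part of this difference in depth in the peak classes was not tested.

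H3K27me3 is laid down by Polycomb repressive complex 2 and marks genes that are kept silent, among them many developmental regulators and genes of other lineages. UTX, encoded by KDM6A on the X chromosome, is a demethylase that removes H3K27me3 and also works as part of complexes that methylate H3K4 at enhancers and promoters. H3K36me3 is a different mark, laid along the bodies of transcribed genes.

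The promoters below show sequence that strongly enriched WT-only peaks covered. They belong to tested genes in RefSeq's promoter table whose promoter window lay wholly inside a WT-only peak and that had no KO peak within 2 kb of either gene end, ordered by peak fold enrichment. The strongest peaks of all, inside ITGB5 and GLIS3, covered no such promoter. Each line gives the 250 bases before the annotated start, 5′ to 3′, from RefSeq on GRCh38.p14, with every CG dinucleotide in capitals because Polycomb targets in human cells are known to be rich in CG.
TUBB6 promoter, chr18:12307419-12307668 (plus strand): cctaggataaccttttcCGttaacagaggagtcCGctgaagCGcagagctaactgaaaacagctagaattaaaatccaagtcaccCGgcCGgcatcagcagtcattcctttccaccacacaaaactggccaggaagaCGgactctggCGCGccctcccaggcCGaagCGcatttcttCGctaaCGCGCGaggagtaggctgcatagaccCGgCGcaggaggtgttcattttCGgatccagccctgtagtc
PLAC9 promoter, chr10:80132480-80132729 (plus strand): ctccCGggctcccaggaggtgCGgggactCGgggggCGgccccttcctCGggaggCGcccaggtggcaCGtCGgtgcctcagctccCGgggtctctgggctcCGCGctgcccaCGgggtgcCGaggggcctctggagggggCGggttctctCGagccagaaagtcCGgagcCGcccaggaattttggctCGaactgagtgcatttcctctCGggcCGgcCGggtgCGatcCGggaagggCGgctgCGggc
ITGA5 promoter, chr12:54419267-54419516 (minus strand): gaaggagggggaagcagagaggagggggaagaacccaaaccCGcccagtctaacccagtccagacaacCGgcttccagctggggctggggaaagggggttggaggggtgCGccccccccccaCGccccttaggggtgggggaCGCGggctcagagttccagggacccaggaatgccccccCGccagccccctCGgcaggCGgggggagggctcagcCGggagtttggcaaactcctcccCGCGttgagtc
NHSL3 promoter, chr1:32741580-32741829 (plus strand): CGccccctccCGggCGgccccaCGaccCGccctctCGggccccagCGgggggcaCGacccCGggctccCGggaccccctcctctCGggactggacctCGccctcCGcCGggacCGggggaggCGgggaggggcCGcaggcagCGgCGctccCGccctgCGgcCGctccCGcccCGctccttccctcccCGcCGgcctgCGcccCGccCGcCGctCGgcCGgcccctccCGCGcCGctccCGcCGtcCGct
COL18A1 promoter, chr21:45404915-45405164 (plus strand): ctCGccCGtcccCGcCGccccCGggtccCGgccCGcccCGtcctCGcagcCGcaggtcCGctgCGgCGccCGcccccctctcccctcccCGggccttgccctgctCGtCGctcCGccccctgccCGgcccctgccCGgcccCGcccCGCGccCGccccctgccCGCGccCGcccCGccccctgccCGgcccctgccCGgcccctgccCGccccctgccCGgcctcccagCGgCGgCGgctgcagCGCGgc

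These 5 sequences differed widely in CG content. The COL18A1 promoter held 37 CG dinucleotides in 250 bases at a G+C content of 88.4%, and that of PLAC9 held 25. TUBB6 had 17 at a G+C content of only 55.2%, which is 0.899 times the number expected from its base composition. ITGA5 held 12, at 0.395 times expectation. NHSL3, which the RNA table lists as KIAA1522, held 38 at a G+C content of 85.6%. RefSeq's promoter table placed 104 promoter windows of 300 bases (250 before to 50 after a start) from 92 genes wholly inside WT-only peaks. Their median G+C content was 70.7%, against 68.7% for 1954 windows inside shared peaks, 60.3% for 65 windows inside KO-only peaks and 58.7% for all 34961 windows. At least 0.6 times the expected CG number was found in 79.8% of the WT-only windows, 79.1% of the shared and 49.0% of all windows. In base composition the promoters in WT-only peaks thus lay near those in shared peaks. The letters GGAATG, on either strand, were in 13.5% of WT-only windows and 14.0% of all windows. TGANTCA was in 5.77% against 7.68%, and TCAGCACC in 0.962% against 1.67%. These WT-only shares are only 6 windows and 1 window of the 104, too few to compare. In shared windows the 3 shares were 10.4%, 4.04% and 2.35%.

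WT-only peaks were short and weak compared with the shared ones. Their median length was 386 bp, with quartiles of 317 and 529 bp, against 875 bp for shared WT peaks. Of the 2867, 2048 (71.4%) were under 500 bp, 116 were 1 kb or longer, 12 were 2 kb or longer and 0 reached 5 kb, a length that 469 shared WT peaks had. The authors' fold enrichment over control had a median of 4.59 in WT-only peaks and 5.92 in shared WT peaks, and the median −log10 q was 5.67 against 10.94. A fold enrichment of at least 8 was reached by 22 WT-only peaks and by 2315 shared ones. Read the other way, 48.8% of WT peaks under 500 bp were WT-only, as were 27.1% of those from 500 bp to 1 kb, 6.7% of those from 1 to 2 kb and 0.784% of those from 2 to 5 kb. KO-only peaks had a similar shape, with a median length of 407 bp and a median fold enrichment of 4.0.

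**Figure D1:**
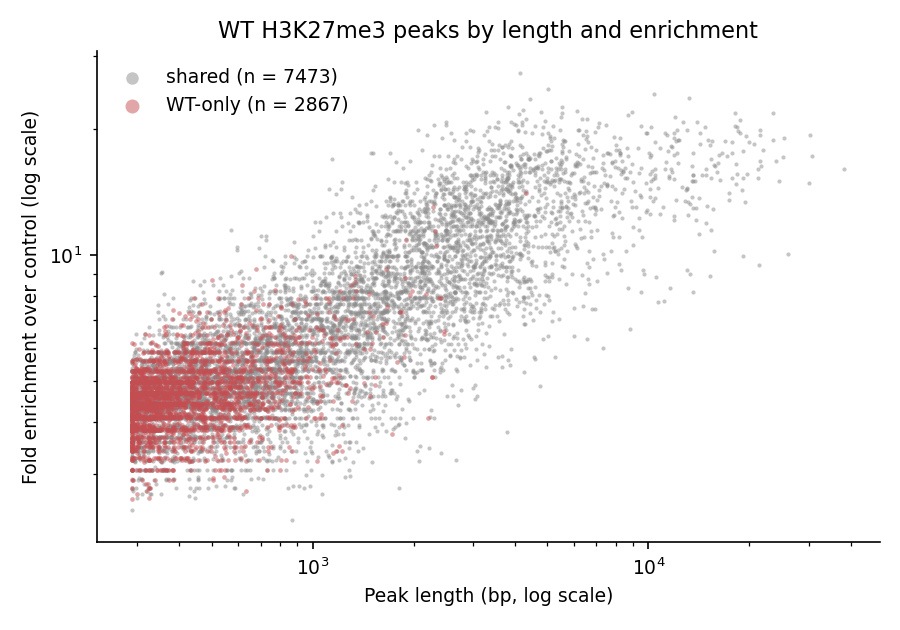
Length (bp, log scale) against the authors' fold enrichment over control (log scale) for each WT H3K27me3 peak, with 2867 WT-only peaks in red and 7473 shared peaks in grey. The WT-only peaks crowd into the short, weakly enriched corner, and 22 of them reach a fold enrichment of 8.

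Many WT-only peaks lay beside a KO peak rather than in an empty stretch. The median distance to the nearest KO peak was 2190 bp. A KO peak was under 1 kb away for 1101 (38.4%), 1 to 5 kb away for 577 (20.1%) and 5 kb or more away for 1189 (41.5%). A shared WT peak lay under 1 kb from 864 (30.1%). At the threshold of the rule the classes were alike: the 100 WT-only peaks nearest to a KO peak (gaps up to 50 bp) had a median length of 381 bp and fold enrichment of 4.40, and the 100 shared peaks with the smallest overlap (up to 47 bp) had 392.5 bp and 4.50. The 1189 distant peaks were hardly longer or stronger, with a median of 397 bp and 4.57, but they held 11 of the 12 peaks of 2 kb or longer.

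**Figure D2:**
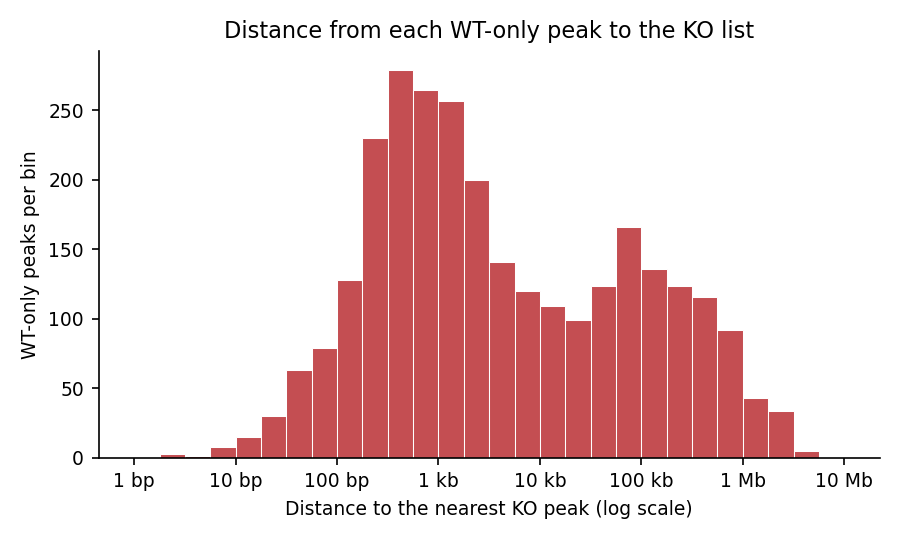
Number of WT-only peaks by distance to the nearest KO H3K27me3 peak (log scale, 4 bins per factor of 10). There are 2 humps, with 1101 peaks under 1 kb and 1189 at 5 kb or more.

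Some WT-only peaks also lay close to each other. Joined at gaps under 10 kb, they formed 1926 runs, of which 1432 were single peaks. The other 494 held 2 or more peaks, 92 held 4 or more and 1 held 21. Shared and KO-only peaks were not joined in this way, so whether such runs are particular to WT-only peaks was not tested. That longest run covered chr11:8258514-8298754 at LMO1, which encodes a LIM-domain transcription regulator. Runs of 17 and 15 peaks lay at FAM53A and at GLRA1, a glycine receptor subunit, and 1 of 13 peaks ran from LINC02381 to SMUG1, a uracil DNA glycosylase. In the order named, a KO peak came within 180, 567, 21 and 145 bp of a peak of these runs. The runs were therefore not far from H3K27me3 calls in KO. RNA at these loci differed in direction, and edgeR and DESeq2 called none of the 4 genes tested there. LMO1 was at 0.932, 3.22 and 2.9 CPM (counts relative to the library total, scaled by TMM) in WT, 3.59, 0.393 and 1.59 for KO1, then 3.23 and 0.446 for KO2. LINC02381, a long non-coding RNA, was at 7.62, 32.8 and 46.1 in WT, 4.04, 4.1 and 0.94 for KO1, then 14.1 and 7.68 for KO2, with a DESeq2 adjusted p of 0.0661. FAM53A was at 1.78 ± 0.311 CPM (SD, n = 3) in WT and 2.63 ± 0.644 (n = 5) in KO, with a DESeq2 adjusted p of 0.267. SMUG1 differed by less than the spread between libraries, at 26.1 ± 1.07 CPM (SD, n = 3) in WT and 25.7 ± 4.0 (n = 5) in KO.

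By position, 769 WT-only peaks (26.8%) lay within 2 kb of an annotated start site, against 3065 (41.0%) of the shared WT peaks. Intergenic positions away from gene ends were more frequent. Outside every annotated gene, and more than 2 kb from either end of any gene, lay 738 (25.7%), against 15.2% of the shared. H3K36me3 calls hardly met them. In the WT lists 3 WT-only peaks overlapped an H3K36me3 peak, at NCAN, ZFP36L2 and PTPRN2, and in the KO lists 0 did, against 19 and 6 shared peaks. Chromosomes were fairly even, with the WT-only share of WT peaks running from 20.9% on chromosome 17 to 34.0% on chromosome 3.

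Within 2 kb of either end of a gene, WT-only peaks touched 1219 annotated genes, 715 of them protein-coding, 364 lncRNA and 17 miRNA genes. For 660 of these genes a KO H3K27me3 peak also lay within 2 kb, so a WT-only peak does not mean that the gene lacked the mark in KO. The other 559 had no KO peak near. Of 293 protein-coding developmental transcription factors of homeobox and related families, the textbook Polycomb targets, 12 (4.1%) were near a WT-only peak, a share close to the 3.58% of all protein-coding genes. A shared peak with no WT-only peak was near 206 of the 293 (70.3%), against 11.8% of all protein-coding genes. Among channel genes 8 of 140 were near a WT-only peak, among transmitter receptors 7 of 103, among ligands of the WNT, BMP, FGF and related families 5 of 73, and among ZNF-type zinc fingers 5 of 545. Collagen genes had the highest share of the 10 families counted, 7 of 44 (15.9%): COL1A1, COL2A1, COL5A3, COL6A5, COL18A1, COL19A1 and COL27A1. A KO peak also lay within 2 kb of 6 of these 7 collagen genes, and of 10 of the 12 transcription factors. A further 17 of the 44 collagen genes (38.6%) were near a shared peak with no WT-only peak. Among the marker lists, 0 of 14 PRC2 genes, 0 of 12 H3K27 demethylases and UTX partners, 0 of 20 pan-neuronal genes, 0 of 15 neural progenitor genes and 0 of 8 housekeeping genes were near a WT-only peak. COL1A1, ACTA2 and FBN1 of 18 mesenchymal and fibroblast genes were, and KRT8 and KRT18 of 8 epithelial genes.

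In WT neurons, genes near WT-only peaks were neither silent as a class nor as active as unmarked genes. Of 692 protein-coding genes with RNA, 242 (35.0%) had a WT mean of at least 10 CPM and 219 (31.6%) a mean under 1 CPM. Near a shared peak and no WT-only peak these shares were 30.6% and 37.9%, and near no H3K27me3 peak 59.4% and 28.8%. The 306 with no KO peak near were more often active, with 42.8% at 10 CPM or above.

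Of the 1219 genes, 891 had a row in the RNA table. Of these 627 passed the filter on low counts and were tested, 264 were not, and 85 had no counts in any library. The filter keeps a gene that is expressed in KO only, so the counts below describe the tested genes and not all members.

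Genes near WT-only peaks were mostly higher in KO than in WT. Their median log2 fold change was 0.62, with quartiles of 0.012 and 1.71, and 473 of 627 (75.4%) were positive. The median over all 18614 tested genes was −0.01, with 49.4% positive. With edgeR's quasi-likelihood test and Benjamini-Hochberg adjustment, 0 of the 627 were called at an FDR under 0.05, beside 0% of all tested genes, and the smallest FDR was 0.222 in the members. At an unadjusted edgeR p under 0.05, 189 were higher and 26 lower, which is 30.1% and 4.15%, while over all tested genes 11.5% were higher and 6.45% lower. DESeq2 gave an adjusted p to 662 members and called 130 higher and 8 lower at 0.05 (19.6% and 1.21%), beside 4.83% higher and 1.16% lower over all genes. In 67 members the lowest KO library exceeded the highest WT library (10.7%, against 6.29% of all tested genes), and in 21 the highest KO library was under the lowest WT library (3.35%, against 6.16%). The higher share was 14.6% in members with no KO peak near and 7.37% in those with a KO peak near. Without KO1 replicate 2 and both KO2 libraries, described below, it was 15.9% in the members against 13.6% of all tested genes.

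The same comparison in the other peak classes gave other medians. Among 288 tested genes near a WT-only peak and no KO peak the median was 0.67 with 79.2% positive, and among the 339 that also had a KO peak near it was 0.61 with 72.3% positive. Near a shared WT peak and no WT-only peak, 1863 genes had a median of 0.19 with 57.8% positive. Near a KO-only peak and no WT peak, 394 genes had a median of −0.24 with 34.5% positive. Genes with a WT peak near are left out of this last class, while the members keep genes with a KO peak near. Without KO1 replicate 2 and both KO2 libraries, described below, these 4 medians were 0.17, 0.05, −0.02 and −0.10, so that of genes near shared peaks changed sign. Within the members, with all 8 libraries, the median was larger near larger peaks: it was 0.55 for 394 genes whose strongest WT-only peak had a fold enrichment under 5, 0.74 for 135 from 5 to under 6, and 1.0 for 98 at 6 or more. It was 0.55 for 363 genes with a peak under 500 bp and 1.27 for 64 with a peak of 1 kb or longer. Genes with 1 WT-only peak near had 0.58 (n = 512) and those with 2 or more 1.23 (n = 115). Without the same 3 libraries this order did not hold throughout: the medians by fold enrichment were 0.09, 0.01 and 0.27, those under 500 bp and at 1 kb or longer 0.09 and 0.26, and those with 1 and with 2 or more peaks 0.08 and 0.29.

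**Figure D3:**
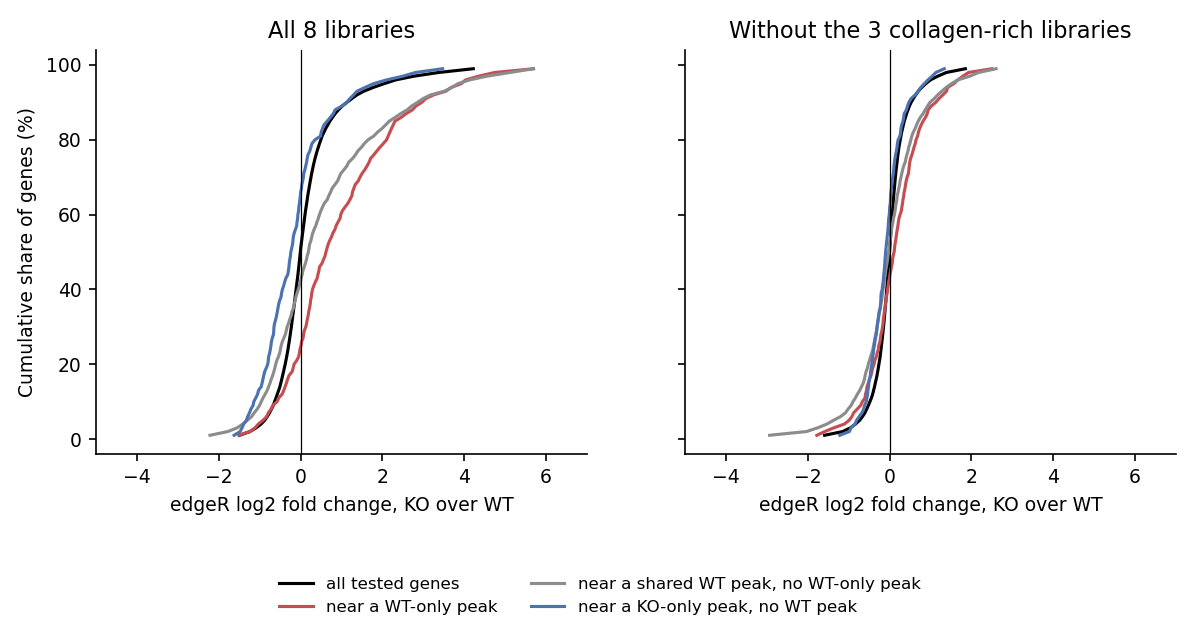
Cumulative share of tested genes (%) by edgeR log2 fold change, KO over WT, for 4 peak classes, with all 8 libraries on the left and without KO1 replicate 2 and both KO2 libraries on the right. On the left the curve of genes near WT-only peaks lies to the right of all tested genes, with medians of 0.62 and −0.01, and on the right the medians are 0.11 and −0.004.

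The higher values sat mainly in 3 of the 5 KO libraries. KO1 replicate 2, KO2 replicate 1 and KO2 replicate 2 stood apart from the rest in collagen RNA, with COL1A1 at 27544, 9226 and 14456 CPM, while the other libraries held 7.65 to 387. The 18 mesenchymal and fibroblast markers summed to 35639 to 88655 CPM in these 3 libraries, 627.8 to 2838 in WT and 2176 to 2578 in the other 2 KO1 libraries. None of the 18 was at 0 in any library. The 20 pan-neuronal genes summed to 2043 to 5327 in the 3, 7028 to 10588 in WT and 7890 to 8995 in the other 2. In such bulk samples fewer cells of a type and less RNA per cell cannot be told apart.

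Measured library by library on log2(CPM + 1), the median difference of the members from the WT mean was 0.22 in KO1 replicate 1, 0.55 in KO1 replicate 2, −0.02 in KO1 replicate 3, 0.67 in KO2 replicate 1 and 0.42 in KO2 replicate 2. Each WT library set against the mean of the other WT libraries gave 0.13, −0.21 and 0.09. KO1 replicate 1 was therefore above the WT range by a small margin and KO1 replicate 3 inside it. Without the 3 collagen-rich libraries the median over 606 tested members was 0.11 with 56.8% positive, 68 were higher and 26 lower at an unadjusted edgeR p under 0.05 (11.2% and 4.29%, beside 4.47% and 3.82% of all tested genes), and edgeR called 0. DESeq2 then called 20 higher and 7 lower of 595 (3.36% and 1.18%, beside 0.877% and 0.55% of all). Only KO1 replicates 1 and 3 remain as KO in these fits, and the part of the smaller group in the lower counts was not tested. The calls of the 2 DESeq2 fits shared 17 genes, 13 higher and 4 lower in both, which is 12.3% of the 138 calls of all libraries and 63.0% of the 27 without the 3. Single libraries moved these counts too. The 130 higher DESeq2 calls became 70, 48 and 68 without WT replicates 1, 2 and 3, 83 without KO1 replicate 2, 208 without KO1 replicate 3 and 74 without KO2 replicate 2, and the 8 lower ones 5 without WT replicate 2, 15 and 16 without KO1 replicates 1 and 3 and 4 without KO2 replicate 2. The 189 higher genes by edgeR became 88 without WT replicate 2, and the 26 lower ones 14 without WT replicate 3. The matching shares of all tested genes are not given for these single-library fits. Whether the members moved more than other genes therefore cannot be told. By line, in a fit with 3 groups, 112 members were higher and 15 lower in KO1 (17.3% and 2.32%, beside 5.62% and 2.44% of all) at an unadjusted edgeR p under 0.05, and 186 higher and 24 lower in KO2 (28.7% and 3.71%, beside 10.6% and 7.78%). Both lines share the WT libraries, and both KO2 libraries are collagen-rich, so line and collagen RNA cannot be told apart in KO2.

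**Figure D4:**
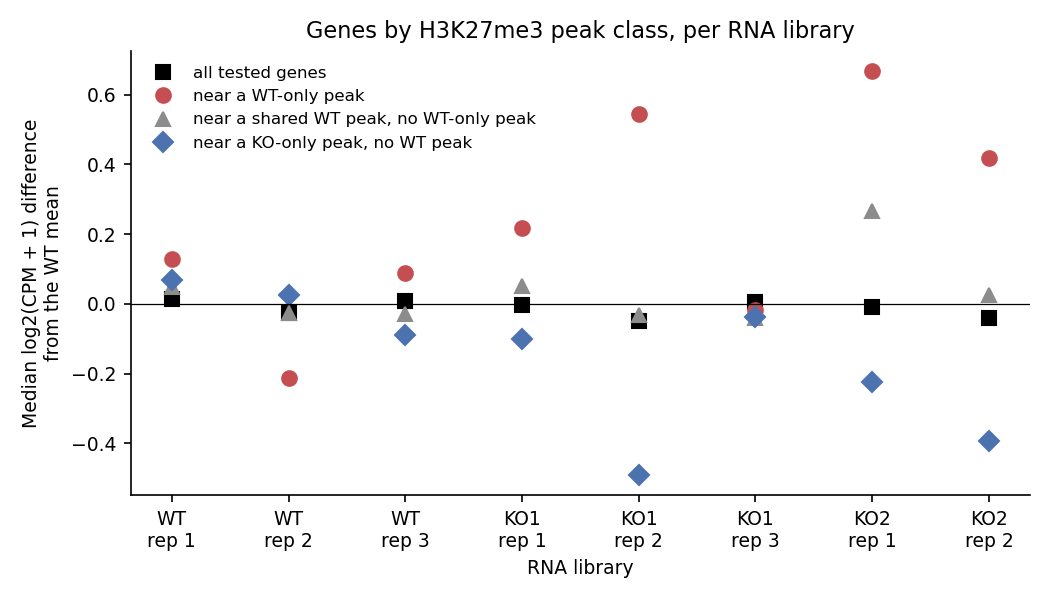
Median difference of log2(CPM + 1) from the WT mean in each RNA library (WT libraries against the mean of the other WT libraries), for all tested genes and 3 peak classes. Genes near WT-only peaks are highest in KO2 replicate 1 (0.67) and KO1 replicate 2 (0.55), while KO1 replicate 3 (−0.02) lies within the WT range.

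The targeted gene itself gives no check of the labels. KDM6A RNA was at 36, 35.9 and 35.2 CPM in WT, 40.8, 30.1 and 34.1 for KO1, then 25.9 and 33.9 for KO2, and the groups overlapped. A gene count cannot show a small lesion that leaves the transcript in place. KDM6A had no WT-only peak near.

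The strongest WT-only peaks included some at genes of adhesion, matrix and cytoskeleton as well as at regulators. The strongest and longest of all, chr3:124883941-124888245, spanned 4305 bp at a fold enrichment of 14.1 inside ITGB5, an integrin subunit, and the nearest KO peak was 297.1 kb away. ITGB5 has no gene end within 2 kb of it, so its RNA was looked at after the peak was seen: 9.97, 16.3 and 22.7 CPM in WT, 38.8, 184 and 15.4 for KO1, then 114 and 107 for KO2 (DESeq2 adjusted p = 0.0115, and 0.734 without the 3 collagen-rich libraries). Only KO1 replicate 3 overlapped WT.

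The second, chr9:4297788-4300067, lay in GLIS3, a zinc finger transcription factor, at 13.0-fold. GLIS3, also added after its peak was seen, was at 14.8, 15.8 and 14.3 CPM in WT, 69.3, 18.9 and 19.5 for KO1, then 77.1 and 27.3 for KO2. No KO library fell to the WT range. The DESeq2 adjusted p was 0.064 with all libraries and 0.0473 without the 3 collagen-rich ones. Other genes that a strong or long peak lay inside, away from the gene ends, were mixed. DESeq2 called TNS3 higher (adjusted p = 0.00296, and 0.00722 without the 3). It did not call GFRA1 (0.0722), RHBDF1 (0.13), LMX1B (0.158) or SLC9A3 (0.574). SLC9A3 had a log2 fold change of −0.207, and LMX1B turned from 2.34 to −0.555 without the 3. TUBB6, a beta-tubulin whose promoter is printed above, had its stronger peak of 2320 bp at 11.4-fold, chr18:12306841-12309160, 17.82 kb from the nearest KO peak. Its RNA was at 63.5, 39.5 and 44.6 CPM in WT, 86.6, 155 and 55.6 for KO1, then 159 and 133 for KO2. The log2 fold change was 1.28 ± 0.394 (SE, DESeq2 adjusted p = 0.0274), and without the 3 collagen-rich libraries it was 0.53 with an adjusted p of 0.621.

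PLAC9, a small secreted protein gene, had a 1896 bp peak at 10.8-fold. It was barely expressed in WT at 0.73, 0.103 and 0.215 CPM and reached 2.07, 20 and 0.499 for KO1, then 6.67 and 10 for KO2. The highest values were again in the collagen-rich libraries. ITGA5, the fibronectin receptor's alpha chain, had 20, 6.17 and 19.7 CPM in WT, 22.5, 188 and 17.2 for KO1, then 93.2 and 126 for KO2, so KO1 replicates 1 and 3 lay near the WT range. AEBP1, a matrix protein, had the same pattern, with 46.9, 28.7 and 53.1 in WT, 45, 519 and 36.8 for KO1, then 219 and 279 for KO2.

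TGFB1I1, near a 1652 bp peak at 9.25-fold, was at 7.62, 3.67 and 7.94 CPM in WT, 21.2, 137 and 8.34 for KO1, then 55 and 83.3 for KO2. DESeq2 called it higher (adjusted p = 0.00161, and 0.294 without the 3 collagen-rich libraries). COL5A3, described below, was called too. The following genes near the strongest or longest peaks were not called. TEAD4, a transcription factor of the Hippo pathway, was at 4.54, 5.21 and 9.12 CPM in WT, 7.73, 12.2 and 4.61 for KO1, then 9.68 and 10.1 for KO2, with an adjusted p of 0.456 by DESeq2. COL18A1, the chain that yields endostatin, was at 184, 101 and 221 in WT, 150, 170 and 70.2 for KO1, then 833 and 241 for KO2 (DESeq2 adjusted p = 0.53). ERBB4, a neuregulin receptor with a 2210 bp peak 2311 kb from any KO peak, was at 36.5, 36.7 and 36.6 in WT, 44.4, 12.9 and 52.2 for KO1, then 85.6 and 24.3 for KO2 (DESeq2 adjusted p = 0.809). In all 3 genes the WT and KO ranges overlapped. KIAA1522 (DESeq2 adjusted p = 0.549) and FZD6, a Frizzled receptor (0.165), were not called either. FBXO27, an F-box protein, was at 2.11, 1.71 and 1.34 in WT, 3.18, 3.98 and 2.26 for KO1, then 3.63 and 2.48 for KO2. Its libraries did not overlap, but its DESeq2 adjusted p was 0.0763. The serotonin receptor HTR1A and COL18A1-AS2 were at or near 0 throughout.

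The members called higher by DESeq2 with the smallest adjusted p included regulators of growth and genes of the actin cytoskeleton and matrix. CDKN2B encodes the CDK inhibitor p15. It was at 1.26, 0.823 and 1.23 CPM in WT, 22.3, 17.3 and 5.93 for KO1, then 71.1 and 39.3 for KO2, a log2 fold change of 4.84 ± 0.685 (SE, DESeq2 adjusted p = 7.09e-09). Every KO library was above every WT library, and without the collagen-rich libraries the adjusted p was 1.92e-07. The strongest of its 3 WT-only peaks was 643 bp long at 5.01-fold, chr9:22003283-22003925, and a KO peak lay 305 bp away.

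TPM1 encodes a tropomyosin that lies along actin filaments. It was at 108, 64.5 and 119 CPM in WT, 877, 820 and 225 for KO1, then 1206 and 787 for KO2, so here KO1 replicate 1 was as high as the collagen-rich KO1 replicate 2. The log2 fold change was 3.02 ± 0.487 (SE, DESeq2 adjusted p = 8.35e-07) and 2.5 without the 3 libraries (0.0321). The nearest KO peak was 875.1 kb from the strongest of its 3 WT-only peaks, 966 bp long.

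FOSL2, an AP-1 transcription factor, was at 10.8, 5.76 and 6.17 CPM in WT, 37.6, 52 and 17.6 for KO1, then 120 and 51.2 for KO2. MSX2, a homeobox factor of neural crest and skeleton, was at 4.62, 2.16 and 5.04 in WT, 14.1, 84.9 and 11.2 for KO1, then 123 and 68.3 for KO2. GADD45B, a stress-response gene, was at 0.567, 0.0686 and 0.59 in WT, 7.48, 31.7 and 1.56 for KO1, then 31.1 and 24.6 for KO2. For these 3 no KO library fell into the WT range, and DESeq2 called each with and without the 3 collagen-rich libraries (adjusted p of 8.61e-05 and 0.00184, 5.65e-05 and 0.00495, and 1.19e-06 and 0.0161). The strongest peak of FOSL2 was 481.8 kb from any KO peak, while KO peaks lay 609 and 1045 bp from those of MSX2 and GADD45B.

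NRP1 encodes neuropilin-1, a receptor for semaphorins and VEGF in growing axons and vessels. It was at 32.2, 58.8 and 31.1 CPM in WT, 129, 99.2 and 89 for KO1, then 92 and 101 for KO2. It did not follow collagen RNA: KO1 replicate 1 was the highest library. The DESeq2 log2 fold change was 1.33 ± 0.277 (SE, adjusted p = 0.000302) with all libraries and 1.42 (0.00508) without the 3. Its peak, chr10:33335516-33337359, was 1844 bp long at 7.33-fold with no KO peak within 2308 kb.

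TNFRSF10D, a decoy receptor for TRAIL, was at 7.25, 4.97 and 7.4 CPM in WT, 24.3, 25.9 and 12.4 for KO1, then 44.2 and 24 for KO2. ANXA2, a membrane-binding annexin, was at 31.4, 15.8 and 37.8 in WT, 155, 741 and 60.4 for KO1, then 737 and 420 for KO2. TENM3-AS1, an antisense RNA, was at 4.21, 4.53 and 6.6 in WT, 20, 19.3 and 9.46 for KO1, then 30.4 and 15.9 for KO2, and no source used here says whether the counting was stranded. In all 3, and in TENT5A, a poly(A) polymerase gene, the KO libraries lay above WT and the DESeq2 call held without the collagen-rich libraries (adjusted p = 0.00761, 0.00362, 0.0153 and 0.011).

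Other genes of the same rank lost the call when those libraries were left out. THBS1, the matrix glycoprotein thrombospondin-1, was at 11.6, 3.7 and 17 CPM in WT, 84.8, 1863 and 47.2 for KO1, then 889 and 594 for KO2. ACTA2, smooth muscle actin, was at 6.28, 4.53 and 19.5 in WT, 151, 374 and 25.8 for KO1, then 362 and 357 for KO2. CAVIN1, which coats caveolae, was at 4.17, 1.89 and 7.88 in WT, 55.6, 500 and 14.1 for KO1, then 352 and 275 for KO2. In each, KO1 replicates 1 and 3 were still above every WT library, but far below the other KO libraries, and the DESeq2 adjusted p without the 3 was 0.0611, 0.191 and 0.0915. Their DESeq2 log2 fold changes were 6.04, 4.68 and 5.72 with all libraries, and 2.62, 3.13 and 2.91 without the 3. The lost calls are thus not a loss of the difference, and fewer KO libraries entered that fit. FBLN5, an elastic fibre protein, had KO1 replicate 3 at 12.4 within its WT range of 3.67 to 16, and an adjusted p of 0.665 by DESeq2 without the 3.

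**Figure D5:**
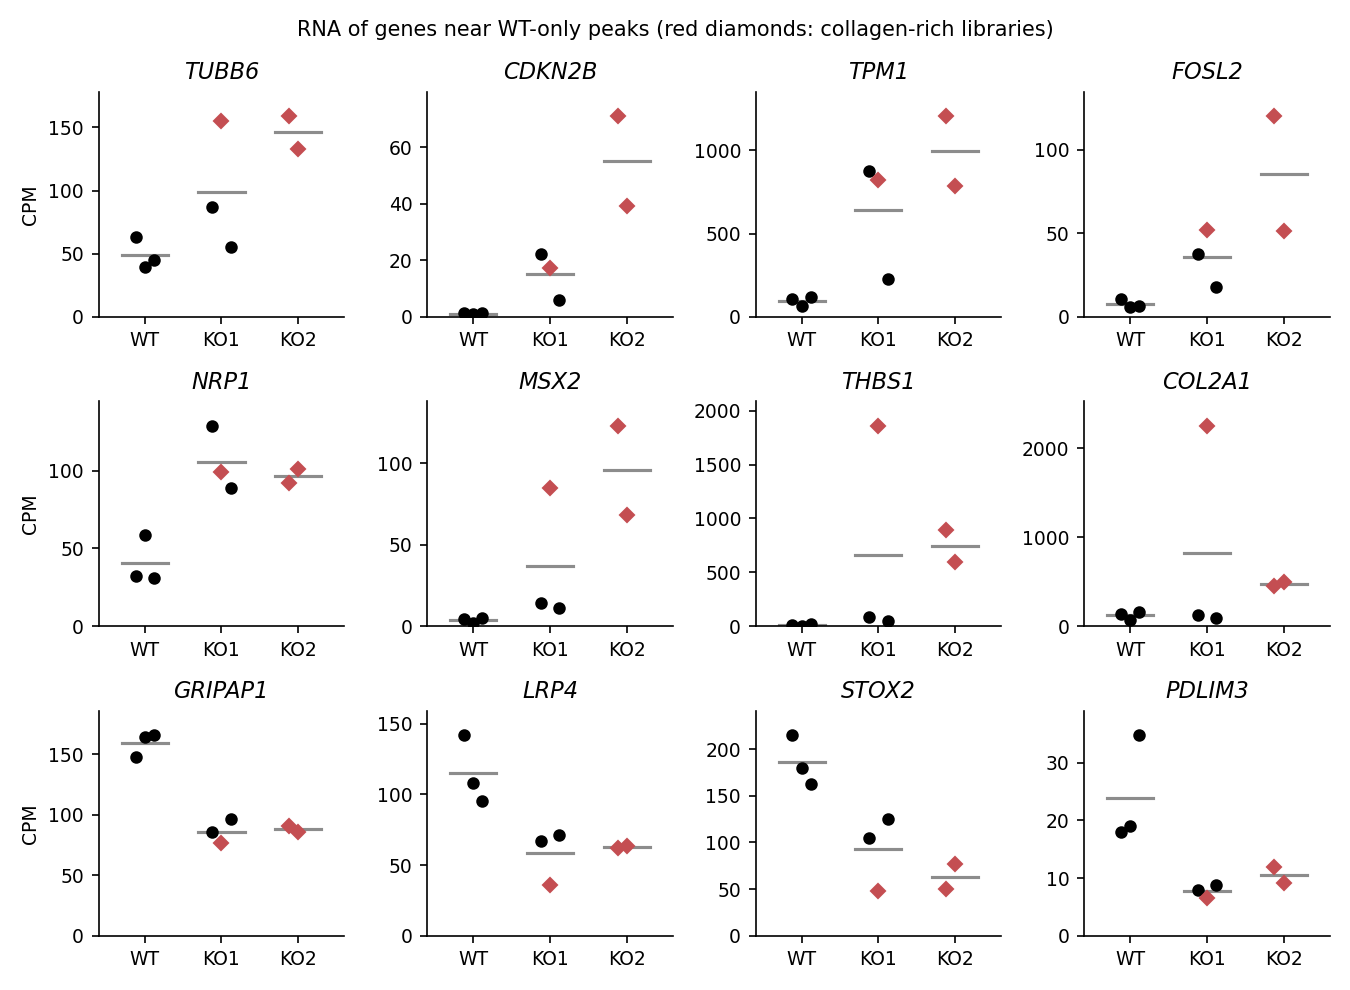
RNA (CPM, each axis from 0) of 12 genes near WT-only peaks in every library, with bars at the mean of each line. Red diamonds are KO1 replicate 2 and both KO2 libraries, and the genes were picked after their values were seen to show the patterns described: NRP1 is up in all 5 KO libraries, COL2A1 in the 3 collagen-rich ones, and GRIPAP1 is down in all 5.

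All 8 members that DESeq2 called lower had KO libraries wholly below WT. A KO peak also lay within 2 kb of an end of PDLIM3, SHD, STOX2 and C17orf58, but not of GRIPAP1, LRP4, HMGA1 and TRIM58. GRIPAP1, an endosomal protein that helps recycle AMPA receptors, was at 148, 164 and 166 CPM in WT, 85.7, 76.5 and 96.2 for KO1, then 90.5 and 85.7 for KO2. Its log2 fold change of −0.87 ± 0.113 (SE) had a DESeq2 adjusted p of 1.88e-10, and 2.35e-05 without the collagen-rich libraries. The KO libraries lay close together, including the 3 that stand apart elsewhere.

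PDLIM3, an actin-associated PDZ and LIM protein, was at 18, 19 and 34.8 CPM in WT, 7.93, 6.62 and 8.78 for KO1, then 11.9 and 9.12 for KO2. SHD, an adaptor protein, was at 12, 18 and 18.6 in WT, 7.02, 3.2 and 7.64 for KO1, then 6.23 and 3.42 for KO2. STOX2, a storkhead-box gene, was at 215, 180 and 163 in WT, 105, 47.7 and 125 for KO1, then 49.6 and 76.8 for KO2. These 3 and GRIPAP1 kept the DESeq2 call without the 3 libraries (adjusted p = 0.00203, 0.00722 and 0.0218 for the 3).

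LRP4, the agrin receptor, was at 142, 108 and 95 CPM in WT, 67.2, 35.9 and 71.5 for KO1, then 61.8 and 63.4 for KO2 (DESeq2 adjusted p = 0.016, and 0.0505 without the 3). HMGA1, an architectural chromatin protein, was at 297, 339 and 638 in WT, 227, 94.8 and 203 for KO1, then 110 and 173 for KO2 (0.014, and 0.114 without the 3, by DESeq2). C17orf58 (DESeq2 adjusted p = 0.00896) was at 10.8, 7.75 and 9.87 in WT and 4.97 to 6.51 in KO. TRIM58, an E3 ubiquitin ligase of red cell precursors, was under 1 CPM in every library and at 0 in 3 of the 5 KO libraries.

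All 6 tested collagen genes among the members had positive edgeR log2 fold changes with all 8 libraries, with a median of 1.99. Without the 3 collagen-rich libraries COL2A1 and COL18A1 turned to −0.13 and −0.61 by DESeq2. COL2A1, the cartilage collagen, had a 2334 bp peak at 10.5-fold that ended 505 bp from a KO peak, and was at 142, 64.4 and 161 CPM in WT, 127, 2255 and 96.7 for KO1, then 452 and 500 for KO2 (DESeq2 adjusted p = 0.0718, and 0.996 without the 3). COL5A3, a fibrillar collagen whose stronger peak lay 50 bp from a KO peak, was at 4.09, 3.22 and 5.52 in WT, 15.5, 17.7 and 6.99 for KO1, then 57.5 and 20.7 for KO2. Its libraries did not overlap, and the DESeq2 adjusted p was 0.00317, and 0.0692 without the 3. COL1A1 itself had only a 540 bp WT-only peak at 4.69-fold with a KO peak 425 bp away.

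Among the 11 tested transcription factors 8 had positive edgeR log2 fold changes with all 8 libraries, with a median of 1.59 over the 11. Without the 3 collagen-rich libraries IRX5 turned to −0.24 by DESeq2. DESeq2 called MSX2 (above), ALX1, a craniofacial homeobox gene (adjusted p = 0.0112), DLX3, of skin and tooth (0.0184), and FOXO1, of the insulin pathway (0.00754). Without the collagen-rich libraries MSX2 kept its call, ALX1 had a DESeq2 adjusted p of 1 and FOXO1 of 0.632, and DLX3 was given none. SOX21, a factor of neural progenitors, was at 144, 135 and 83.8 CPM in WT, 104, 4.32 and 84.1 for KO1, then 21.8 and 33.4 for KO2. It was low in the collagen-rich libraries only, and was not called (DESeq2 adjusted p = 0.334). POU3F1 (0.165), SOX13 (0.505), IRX5 (0.292), ZIC4 (0.191), FOXP4 (0.148) and FOXD4L1 (0.558) were not called by DESeq2 either, and NKX6-3 was not tested.

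The epithelial keratins KRT8 and KRT18 share a strongest peak of 753 bp. KRT8 was at 6.36, 5.59 and 7.62 CPM in WT, 14.3, 24 and 7.96 for KO1, then 223 and 37.8 for KO2 (DESeq2 adjusted p = 0.0155, and 0.405 without the 3). The epithelial list as a whole (8 genes, none at 0) summed to 21.72 to 90.13 CPM in WT, 190.2 to 782.5 in the 3 collagen-rich libraries, 560.2 in KO1 replicate 1 and 45.55 in KO1 replicate 3. FBN1, the fibrillin of elastic fibres, was at 26, 24.6 and 45 in WT, 70.9, 935 and 49.2 for KO1, then 376 and 593 for KO2 (DESeq2 adjusted p = 0.00117, and 0.152 without the 3).

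Leaving out the 3 libraries also brought calls that the full set did not have. TMEM132D, a transmembrane protein gene, was at 37.2, 26.6 and 21.1 CPM across WT, 86.8 and 64.2 in KO1 replicates 1 and 3, but 8.25 in KO1 replicate 2 and at 35.4 and 23.3 in KO2 (adjusted p by DESeq2 of 0.593 with all libraries and 0.000316 without the 3). ETV5, an ETS factor downstream of FGF signalling, was at 21.5, 34 and 13.7 in WT, 100, 23.5 and 53.1 for KO1, then 68.3 and 33.4 for KO2. SALL1, a zinc finger factor, was at 152, 140 and 158 in WT, then 105, 10.9 and 96.8 for KO1, then 7.3 and 50 for KO2. For SALL1 all KO libraries lay below WT, and DESeq2 called it only without the 3 (adjusted p = 0.00404). These genes were picked from the 27 calls after their values were seen.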

How the data were processed

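RNA-seq libraries and ChIP-seq peak lists from day 40 neurons were used. RNA was quantified with Salmon 1.1.0 and tested with DESeq2 1.26.0, per the submitters' processing notes. The RNA values are estimated counts by gene symbol as deposited, without normalization, and were rounded to whole numbers here. ChIP reads were aligned to GRCh38 with Bowtie2 2.4.1, per the submitters' processing notes, and narrow peaks were called with MACS2 2.2.7.1 at q 0.01, per the file headers. As deposited, each peak carries a pileup signal, a fold ratio against control and a −log10 q-value. A further table deposited by the authors lists, for KO and WT, log2 fold changes, a Wald score, p-values and a mean normalized signal. The authors' deposited table calls 1243 genes at an adjusted p under 0.05, 138 of them near WT-only peaks.

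Genes were placed with RefSeq GRCh38.p14, where 37109 of 60199 symbols matched (731 by a synonym). A gene is near a peak that lies within 2 kb of either annotated end. Peak overlaps, gene assignment and summaries used Python 3.11.15 with pandas 2.3.3. RNA was tested mainly with the quasi-likelihood test of edgeR 4.0.16 in R 4.3.3 (TMM scaling, filterByExpr, Benjamini-Hochberg, FDR 0.05), with KO1 and KO2 pooled as KO. DESeq2 1.42.0 was the second tool. Both tools were tested on simulated data. There DESeq2 called more unchanged genes than edgeR, and edgeR found fewer of the changed ones. The simulation is no check of the calls given here. CPM are TMM-scaled, and totals were 17.4 to 31.5 M counts per library, which limits weakly expressed genes most. Named genes are those near the 15 strongest and 15 longest WT-only peaks, up to 12 higher and 12 lower DESeq2 calls of smallest adjusted p, the 5 higher and 5 lower of smallest edgeR p, and members of the marker lists or of the transcription factor family. Genes outside this rule are named as chosen after their values were seen. Alternatives changed scaling, filter, tool, overlap, window and libraries. The promoters printed are those of highest peak fold enrichment among the ones that may be shown. No column of per-sample values was left unmapped. The members, lists and tests were chosen with earlier results of these data known.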

Additional observations from a re-analysis of the deposited data

Results flagged for a closer look

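In 8 of 48 named genes with a level of at least 1 CPM in some KO library, 1 of the 5 KO libraries lay far from the other 4, judged by its gap to the nearest library over the range of the 5 (above 0.71). The ratio was taken on CPM without a log scale, and many of the named genes were picked for their RNA. No rate expected by chance is therefore given. KO2 replicate 1 was high for COL5A3 (57.5 CPM), FZD6 (74.6), COL18A1 (833), KRT8 (223) and KRT18 (270). KO1 replicate 2 was high for COL2A1 (2255 CPM) and low for LRP4 (35.9 CPM). KO1 replicate 1 was high for NRP1 (129 CPM), where the other 4 KO libraries lay between 89 and 101 CPM. The 5 KO libraries come from 2 lines, and the 3 collagen-rich libraries are among the 5.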

How the results depend on the processing

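The number of WT-only peaks was 1765 with no KO peak within 1 kb, 1189 with none within 5 kb, 1868 at a −log10 q of at least 5 and 116 at a length of at least 1 kb. Genes with RNA near them numbered 1387 within 5 kb of either end, 1426 over the gene span, 402 with no KO peak near and 380 with the nearest KO peak 5 kb or more away. The median log2 fold change of members stayed positive in all 23 alternatives. It was lowest, 0.11, without the 3 collagen-rich libraries, 0.40 in KO1, 0.81 in KO2, and 0.42 to 0.75 with single libraries left out. edgeR called 0 genes in every fit run, and DESeq2 called 138 members and 1243 genes in all. Members higher at an unadjusted edgeR p under 0.05 (189) numbered 93 with the replicate block, 112 in KO1, 68 without the 3 and 88 to 237 with single libraries left out, and lower ones (26) 15 in KO1 and 14 to 31. DESeq2's 130 higher calls became 20 without the 3 and 48 (without WT replicate 2) to 208 (without KO1 replicate 3), and its 8 lower calls 4 (without KO2 replicate 2) to 16 (without KO1 replicate 3). For the replicate block and the fits with single libraries left out, the matching shares of all tested genes are not given. Shifts in those counts therefore cannot be read as particular to the members. Members with all KO libraries above WT went from 67 to 100 without the 3 (15.9%, against 13.6% of all tested genes). Those with all KO libraries below WT went from 21 to 45 (7.18%, against 12.3% of all tested genes). Fewer libraries enter without the 3. In the fit with the replicate block the median was 0.48. Same-numbered WT and KO libraries deviated from their group means with correlations of −0.321 to 0.069, and same-numbered KO1 and KO2 libraries with 0.267 and 0.164. Differently numbered libraries were not compared, so these values cannot decide whether the numbers pair the samples. No crossed pairing was made. All 348 alternative values of the 22 single genes named for their RNA kept their direction. These genes were picked for small p-values in fits of the same libraries, so the count is no independent check. Some genes named by other rules, COL2A1 among them, did change direction without the 3 collagen-rich libraries. Depth limits the ChIP comparison, which rests on 1 list a genotype.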
